A study of Mus musculus with 16 samples.

Results

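Apolipoproteins were followed across lung and liver RNA of newborn mouse pups through 10 genes, Apoa1, Apoa2, Apoa4, Apoa5, Apob, Apoc1, Apoc2, Apoc3, Apoe and Apom. They were taken by symbol from 25054 rows of a table of gene counts, and each had 1 row. All pups were offspring of heterozygous C57BL/6J parents carrying an exon 2 deletion of Man1a2, which encodes an N-glycan mannosidase of the Golgi. Both parents received N-acetyl cysteine (NAC), an antioxidant, at 1 g/kg body weight, or water as placebo, from a week before breeding until delivery. Pups fell into 4 groups by viability and genotype, dead null, dead heterozygous, live heterozygous and live wild-type (WT). Pups were watched for 24 h and checked every 8 h, those that died were dissected at death and the others were killed at 24 h, so that viability and age at harvest cannot be told apart. RNA of 3 experiments was pooled for each library, and of 2 for dead heterozygous pups, which gave 16 libraries, 1 for each pup group, treatment and labelled tissue.

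Apolipoproteins are the protein part of lipoprotein particles, which carry triglyceride, cholesterol and phospholipid in blood. Apob is the scaffold of chylomicrons and very low density lipoprotein, and Apoa1 and Apoa2 are the main proteins of high density lipoprotein. Apoc2 activates lipoprotein lipase, Apoc3 and Apoc1 restrain the clearance of triglyceride-rich particles, Apoa5 promotes it, and Apoe is the ligand by which remnants are taken up. Apoa4 is made in the intestine and, in rodents, in the liver, and Apom carries sphingosine 1-phosphate. The liver makes most of these proteins, whereas Apoe is also made by macrophages and many other cells.

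The tissue labels did not describe the contents of the libraries. Albumin (Alb), the main secreted protein of hepatocytes, and surfactant protein C (Sftpc), made by alveolar type 2 cells, sorted the libraries into 8 with liver content (Alb of at least 50000 counts per 1000000 counts, CPM), 7 with lung content (Sftpc of at least 1000 CPM and Alb under 1000) and 1 with both. In 9 of the 16 libraries this content was not that of the label. Of the liver-content libraries, 4 were labelled lung (live WT placebo, live heterozygous placebo, dead heterozygous NAC and dead null NAC) and 4 liver (live WT NAC, live heterozygous NAC, dead heterozygous placebo and dead null NAC). Lung-content libraries were those labelled lung of live WT NAC, live heterozygous NAC and dead heterozygous placebo pups, and those labelled liver of live WT placebo, live heterozygous placebo, dead heterozygous NAC and dead null placebo pups. Content is used below, the label is named where a library is named, and no library was moved between pup groups or treatments. Whether the pup group and treatment labels hold where the tissue label does not was not tested, and each value below by treatment, viability or genotype rests on them. The summed level of 12 hepatocyte markers was 142551 to 217013 CPM in liver-content and 249 to 1462 CPM in lung-content libraries, and that of 12 lung markers 15.9 to 30.9 and 10028 to 22847 CPM. These lists hold the genes used for sorting, and without Alb and Sftpc the sums were 91548 to 120292 against 238 to 1420 CPM and 15.8 to 30.9 against 5582 to 11089 CPM. The dead null NAC library labelled liver stood nearest the threshold with Alb at 51003 CPM, and the mixed library, dead null placebo labelled lung, had 9280 CPM. Liver-content libraries held 14115802 to 16107749 counts and lung-content libraries 7236865 to 11808823. Man1a2 itself was at 24.5 to 29.6 CPM in the dead null and 22.6 to 43.3 CPM in the other liver-content libraries, and at 70.0 CPM in the dead null and 41.0 to 121 CPM in the other lung-content libraries. The gene count does not separate the deleted exon, so that these values check no genotype. Xist, the RNA of the inactive X chromosome, was at 0.337 CPM in the dead null NAC library labelled liver and at 0.457 CPM in the dead heterozygous placebo library labelled lung, against 171 to 879 CPM in the other 14. Whether the dead null NAC libraries, the other of which had 216 CPM, came from the same pups is not given in the sources used here.

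The 10 genes lie at 5 places in the genome (GRCm38). Apoa1 (chr9:46228580-46230466), Apoc3 (chr9:46232933-46235636), Apoa4 (chr9:46240696-46243459) and Apoa5 (chr9:46268633-46271919) form a cluster of 43340 bp, with Apoc3 alone among them on the minus strand. Apoe (chr7:19696109-19699188), Apoc1 (chr7:19689481-19692660) and Apoc2 (chr7:19671579-19677941) form a cluster of 27610 bp on the minus strand. Apoa2 (chr1:171225054-171226379), Apob (chr12:7977648-8016835) and Apom (chr17:35128997-35132050) stand alone. Exons of Apoc2 overlap those of Gm44805 on the same strand, and exons of Apoa4 and Apoa5 overlap non-coding genes on the other strand. How shared reads were divided is not given in the sources used here, so the counts of these 3 genes are uncertain to that extent.

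The 100 bases before the GENCODE start of 4 of these genes are shown, since Apoa4 differed most and Apoe least among liver-content libraries, Apoa1 followed Apoa4 most closely, and Apob carried the most motifs. Each is 5′ to 3′ on the strand of the gene, with capitals marking the motifs found. The letters are from RefSeq promoter windows (GRCm38.p6), whose own start lay 148 bp from the GENCODE start for Apoa4, 50 bp for Apoa1, 29 bp for Apob and at it for Apoe.
Apoa1, chr9:46228480-46228579, plus strand: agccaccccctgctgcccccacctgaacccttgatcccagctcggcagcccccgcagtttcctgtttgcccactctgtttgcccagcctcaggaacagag
Apoa4, chr9:46240596-46240695, plus strand: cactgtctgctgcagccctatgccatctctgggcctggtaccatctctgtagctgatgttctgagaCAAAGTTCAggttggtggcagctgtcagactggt
Apob, chr12:7977548-7977647, plus strand: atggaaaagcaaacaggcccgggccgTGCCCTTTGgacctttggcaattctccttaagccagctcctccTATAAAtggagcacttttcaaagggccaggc
Apoe, chr7:19699189-19699288, minus strand: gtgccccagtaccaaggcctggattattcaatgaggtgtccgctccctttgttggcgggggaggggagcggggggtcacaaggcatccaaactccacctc
RefSeq windows of 300 bases were matched for 8 of the 10 genes (not Apoc1 and Apoc3) and searched on both strands. The letters CAAAGNNCA, a spelling of the core bound by HNF4 and other nuclear receptors, occurred in 6.38% of 32544 promoters and in those of Apoa4 (first base at -34 from the GENCODE start) and Apob (-74). The stricter CAAAGTCCA occurred in 0.479% of promoters and in none of the 8. TATAAA occurred in 13.6% of promoters and in those of Apob (-31), Apoa5 (-56) and Apoa2 (-212). These matches describe letters only.

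In every liver-content library each of the 10 genes was higher than in any lung-content library. Over all features with a mean of at least 1 CPM, 13% (1842 of 14175) were higher in liver content in this way, and 36.8% were lower. Content was read from the same libraries, so this is a description and was not tested, and fewer cells of a type and less RNA per cell cannot be told apart in such bulk samples.

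**Figure D1:**
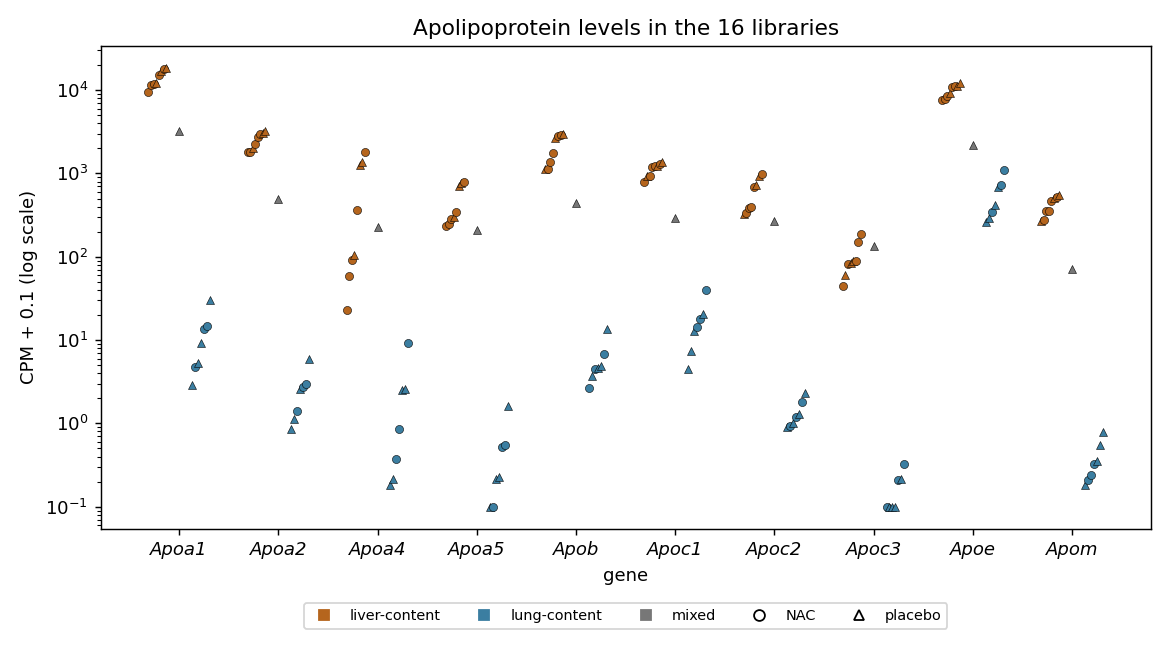
Level of each of the 10 genes (CPM + 0.1, log axis) in the 16 libraries, 1 point a library, coloured by content, with circles for NAC and triangles for placebo. Liver-content points lie above lung-content points for each gene, with the mixed library between them except for Apoa4 and Apoc3, for which it lies within the liver-content range.

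Among the particle proteins, Apoa1 was at 9439, 13552 and 18485 CPM (lowest, median and highest of 8) in liver content and at 2.80, 9.05 and 29.9 CPM (of 7) in lung content, medians that differed 1498-fold. Apoa2 was at 1795, 2494 and 3239 CPM against 0.762, 2.46 and 5.77 CPM, a 1016-fold difference of medians. Apob was at 1138, 2203 and 3011 CPM against 2.52, 4.52 and 13.6 CPM, a 487-fold difference. Of these, the high density lipoprotein genes stood farther apart by content than the scaffold of the triglyceride-rich particles.

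Among genes that act on the clearance of triglyceride, Apoc2 was at 328, 536 and 997 CPM in liver content and at 0.799, 1.10 and 2.19 CPM in lung content, a 488-fold difference of medians. Apoa5 was at 236, 325 and 793 CPM in liver content and at or under the floor of 3 counts in 5 of the 7 lung-content libraries, so that its median was at least 838-fold higher in the first. Apoc3 was at 44.4, 86.8 and 190 CPM and did not exceed 2 counts in any lung-content library, at least 254-fold higher in liver content. Apom was at 272, 414 and 551 CPM and at or under the floor in 5 lung-content libraries, at least 1067-fold higher. For these bounds the floor was applied to each library.

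Apoe and Apoc1, neighbours on chromosome 7, had the highest median CPM of the 10 in lung content. Apoe was at 7646, 10045 and 12302 CPM in liver content and at 261, 419 and 1090 CPM in lung content, medians that differed 24.0-fold. Apoc1 was at 795, 1200 and 1387 CPM against 4.34, 14.1 and 40.3 CPM, an 85.2-fold difference. Apoa4 had the least gap between contents, with its lowest liver-content library (22.9 CPM) 2.50-fold above its highest lung-content library (9.16 CPM, 81 counts, live WT NAC labelled lung), although its medians differed 308-fold.

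Per kilobase of exon, the order of median levels in liver content was Apoa1 (10964 CPM per kb), Apoe (4698), Apoa2 (4645), Apoc1 (1614), Apoc2 (659), Apom (408), Apob (158), Apoa4 (130), Apoa5 (129) and Apoc3 (85.6). Neighbours in this order overlapped in range except Apoa1 with Apoe, Apoa2 with Apoc1, and Apom with Apob. In lung content the order was led by Apoe (196 CPM per kb), whose range stood clear of that of Apoc1 (18.9), followed by Apoa1 (7.32) and Apoa2 (4.57). All neighbours below Apoe overlapped in range there.

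Set against the albumin count of the same library, the genes differed by degree between contents. The Apoa1 count was 9.83 to 35.2% of the Alb count in liver-content and 11.2 to 48.9% in lung-content libraries, ranges that overlapped. That of Apoe was 7.55 to 21.7% in liver content and 194 to 2766% in lung content, and that of Apoc1 0.785 to 2.56% and 5.39 to 97.9%. Of the 10 genes, only for these 2 did the ranges not overlap, with the lowest lung-content share 8.92 and 2.10 times the highest liver-content share. The share of all features for which this held was not counted. It was not particular to these 2, since Trf, at 33.9 to 44.9% and 208 to 3372%, did not overlap either. Apob was at 1.13 to 5.62% and 3.77 to 34.8%, with overlap, although its lung-content median of 8.42% was above its highest liver-content share. Apoc2 was at 0.344 to 1.96% and 0.706 to 7.61%, likewise with a lung-content median (2.10%) above its highest liver-content share. Apoa5, Apoc3 and Apom held at most 3 counts in most lung-content libraries, so their shares there are uncertain. Across lung-content libraries Apoe had a Pearson's r of 0.04 with Alb and of 0.35 with the macrophage marker sum (n = 7), which describes libraries that also differ in depth. The 12 macrophage markers summed to 438 to 1766 CPM in lung-content and to 706 to 1266 CPM in liver-content libraries, but Lyz2, which alveolar type 2 cells also express, made up 382 to 1522 CPM of the first. The other 11 summed to 55.96 to 279.5 CPM in lung and 474 to 929 CPM in liver content, with Clec4f at or under the floor in 5 and Timd4 in 6 of the 7 lung-content libraries, and Apoe had an r of 0.09 with their sum in lung content. Their part in the Apoe level was not tested.

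**Figure D2:**
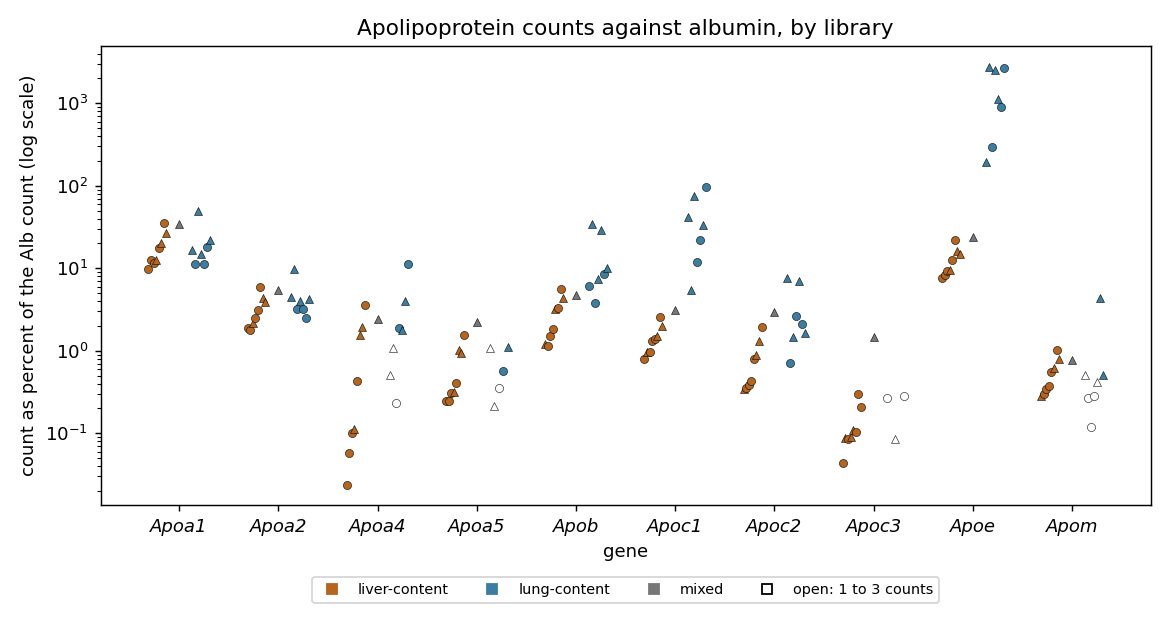
Count of each gene as a percentage of the Alb count of the same library (log axis), 1 point a library, coloured by content, circles for NAC and triangles for placebo. Open symbols mark 1 to 3 counts and libraries with no count are left out. Apoe and Apoc1 in lung content stand above their liver-content range, and Apoa1 does not.

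Within liver content the 10 genes did not vary alike. Apoa4 ranged 79.9-fold and the others from 1.61-fold (Apoe) to 4.28-fold (Apoc3). Apoa4 was at 22.9 CPM in live WT NAC (labelled liver), 58.6 in dead null NAC (labelled lung), 91.5 in dead heterozygous NAC (lung), 106 in dead heterozygous placebo (liver), 367 in live heterozygous NAC (liver), 1279 in live WT placebo (lung), 1373 in live heterozygous placebo (lung) and 1831 in dead null NAC (liver). Its 3 highest libraries included live and dead, NAC and placebo, and both labels, and the 2 dead null NAC libraries lay near opposite ends. Apoa5 was at 762, 707 and 793 CPM in those 3 libraries and at 236 to 346 CPM in the other 5. Apoc2 was at 733, 923 and 997 CPM in them and at 328 to 680 CPM elsewhere.

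**Figure D3:**
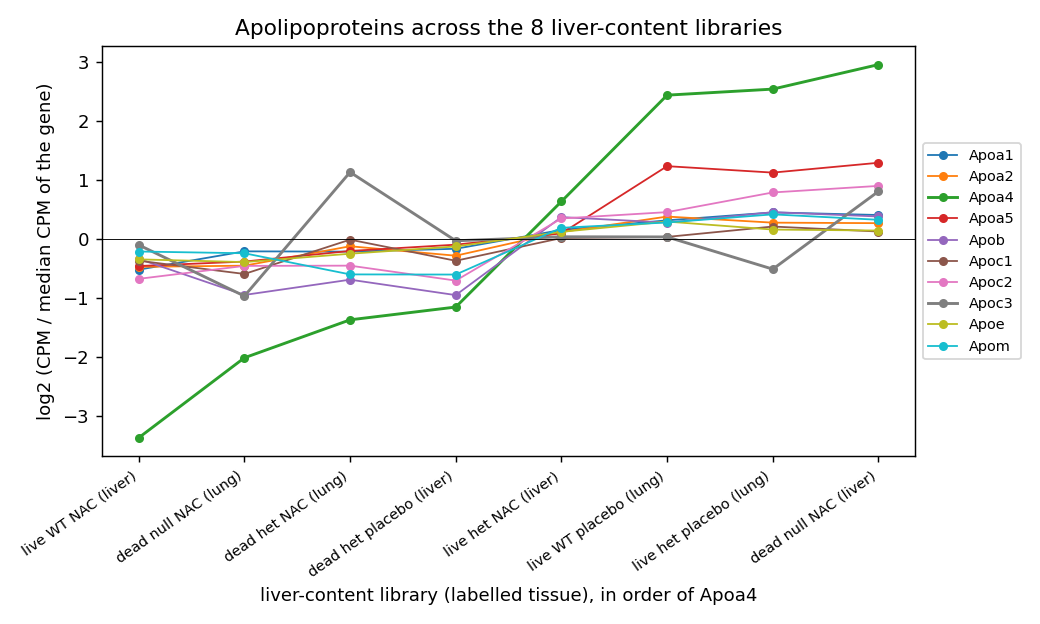
Level of each gene relative to its own median over the 8 liver-content libraries (log2), with libraries in order of Apoa4 and the labelled tissue in brackets. Apoa4 spans 79.9-fold, the other genes 1.61-fold to 4.28-fold, and Apoc3 does not follow the rest.

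Apart from Apoc3, the genes moved together across these libraries. The r of a gene with the mean standardized profile of all 10, which includes the gene itself, was between 0.84 and 0.98 for 9 of them and 0.28 for Apoc3 (n = 8 libraries). Apoa1 and Apoa4 had an r of 0.99, whereas Apoc3, which lies between them in the cluster, had 0.07 with Apoa1 and 0.17 with Apoa4, and -0.16 with Apom. Apoc3 was highest, at 190 CPM, in dead heterozygous NAC (labelled lung), where a sum of 8 pancreas markers was 120 CPM against 7.19 to 16.3 CPM in the other liver-content libraries. The next highest, dead null NAC labelled liver, had 152 CPM of Apoc3 and 14.8 CPM of these markers. Their part in the Apoc3 level was not tested. Apoc3 was lowest, at 44.4 CPM, in dead null NAC labelled lung.

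Other measures of the libraries moved with this profile. The profile had an r of -0.82 with Alb and of -0.80 with the sum of 9 erythroid markers, which ranged from 6925 to 35763 CPM (n = 8). With the sum of the lung markers, only 15.9 to 30.9 CPM, the profile had an r of -0.87, but Nkx2-1, Lamp3 and Aqp5 were at or under 3 counts in every liver-content library. With the sum of 10 intestinal epithelium markers, 28.96 to 113 CPM, it had an r of 0.90, but the defining genes Cdx1, Cdx2, Isx and Sis were at or under 3 counts in every liver-content library. The part of blood cell content in the profile was not tested. Of all features with a mean of at least 10 CPM, 31.8% (2755 of 8655) had an r of at least 0.7 with the profile, so that such values are common here. The 5 genes nearest to it outside the 10 were Afg3l1, 2410015M20Rik, Uqcrc1, Ndufv1 and Phyh, with r of 0.993 to 0.994, of which Uqcrc1 and Ndufv1 encode subunits of the respiratory chain and Phyh a peroxisomal hydroxylase.

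The r with the profile differed among the groups of lipoprotein genes. Of 11 assembly and Apob editing genes, 9 had an r of at least 0.7, with a median of 0.84 against 0.31 over all features. Mttp, the transfer protein that loads lipid onto Apob, was at 0.98 and Tm6sf2 at 0.96. Of 11 lipoprotein receptor and efflux genes none reached 0.7, with a median of -0.34. Among 7 other apolipoproteins the median was 0.75, with Apoc4 at 0.98. Among 9 lipases and high density lipoprotein enzymes it was 0.74, with Pon1 at 0.94 and Lpl, which encodes lipoprotein lipase, at -0.86. Of 15 regulators, Creb3l3 was at 0.96, Nr1h3 at 0.92 and Foxa2 at 0.91, whereas Hnf4a was at 0.20, Srebf1 at -0.86 and Foxo1 at -0.88. These correlations share 8 libraries, their depth and their erythroid content, and were not tested.

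Dead and live pups were compared in liver content to ask whether apolipoprotein expression differed with death in the first day, with treatment as a covariate and 4 libraries on each side. All null libraries were of dead and all WT libraries of live pups, and the model held no genotype. Viability and genotype therefore cannot be fully told apart in the dead versus live comparisons here. None of the 10 genes was called, as was the case for 0% of 12993 features (edgeR quasi-likelihood test, 702 features at an unadjusted p under 0.05, and 45 called by DESeq2). Apob was at 1741, 2665, 2844 and 3011 CPM in live pups and at 1138, 1140, 1364 and 2864 CPM in dead pups. The groups overlapped through a single dead library, dead null NAC labelled liver. Its log2 fold change, dead minus live, was -0.67 ± 0.33 (SE, adjusted p = 0.78, and 0.138 to 1 over the alternatives). It was -0.96 without dead null NAC labelled liver, -0.37 without dead heterozygous placebo labelled liver and -0.26 in libraries labelled liver alone. Apoa4, at 22.9, 367, 1279 and 1373 CPM in live and 58.6, 91.5, 106 and 1831 CPM in dead pups, had 0.45 ± 1.90 (adjusted p = 0.962), an error too wide to fix a direction. Apoc3 was at 60.8, 80.8, 88.8 and 88.9 CPM in live and 44.4, 84.9, 152 and 190 CPM in dead pups (0.46 ± 0.38, adjusted p = 0.789).

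The other 7 genes had log2 fold changes between -0.38 (Apom) and -0.01 (Apoa5), and the median over the 10 was -0.13 against 0.01 over all features. Apoa4 turned to -0.59 ± 1.24 with viability alone in the model. Without dead null NAC labelled liver it was -2.07 ± 0.89 (adjusted p = 0.23 by edgeR, the lowest of its alternatives), and without live WT NAC labelled liver -1.31 ± 2.09, so that its direction rested on those libraries. Assembly and editing genes (11 tested, median -0.26), other apolipoproteins (8, median -0.24), lipases and enzymes (9, median -0.06), receptors (13, median -0.01) and regulators (16, median -0.16) had no call either.

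NAC and placebo were compared in liver content to ask whether gestational NAC went with another apolipoprotein level, with viability as a covariate, 5 NAC and 3 placebo libraries. None of the 10 genes was called, nor was any of 12993 features (0%; edgeR quasi-likelihood test, 260 features at an unadjusted p under 0.05, 1 called by DESeq2). Apoa4 was at 22.9, 58.6, 91.5, 367 and 1831 CPM with NAC and at 106, 1279 and 1373 CPM with placebo, a log2 fold change of -1.36 ± 2.02 (SE, adjusted p = 1). Apoa5 was at 236, 249, 282, 346 and 793 CPM with NAC and 303, 707 and 762 CPM with placebo (-0.62 ± 0.50, adjusted p = 1). In both, the highest NAC library, dead null NAC labelled liver, was above every placebo library. The other 8 genes lay between -0.22 (Apoa1) and 0.36 (Apoc3), and the median over the 10 was -0.14 against 0.02 over all features.

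By genotype, no feature was called between live heterozygous and live WT pups or between dead null and dead heterozygous pups in liver content (0% of 12993 each; 207 and 1240 features at an unadjusted p under 0.05 by the edgeR quasi-likelihood test; DESeq2 was not run on these). Apoa4 had a log2 fold change of 1.21 ± 1.73 (SE, adjusted p = 0.999) for heterozygous minus WT. For null minus heterozygous, Apom, at 349 and 517 CPM in null and 272 and 272 CPM in heterozygous pups, had 0.79 ± 0.25 (adjusted p = 0.421 by edgeR). Apoa4 had 3.99 ± 1.77 (adjusted p = 0.54 by edgeR), with 58.6 and 1831 CPM in null against 91.5 and 106 CPM in heterozygous pups, ranges that overlapped. Its log2 fold change was 0.29 without dead null NAC labelled liver and 6.81 without dead heterozygous NAC labelled lung. The median over the 10 genes was 0.19 (9 above 0) for heterozygous minus WT and 0.61 (9 above 0) for null minus heterozygous, against 0.01 and 0.07 over all features. The first median was -0.05 without live WT NAC labelled liver, and the second 0.20 without dead null NAC labelled liver. Most of the genes moved together across these libraries, so the counts above 0 are not of independent genes. Erythroid markers had medians of -0.77 and -1.56 (none of 9 above 0 in either), and their part was not tested. In the second comparison null pups had NAC libraries alone. The authors reported that all null pups died shortly after birth, and the age at death of the pooled heterozygous pups is not given in the sources used here. Genotype and age at death therefore cannot be told apart in it.

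**Figure D4:**
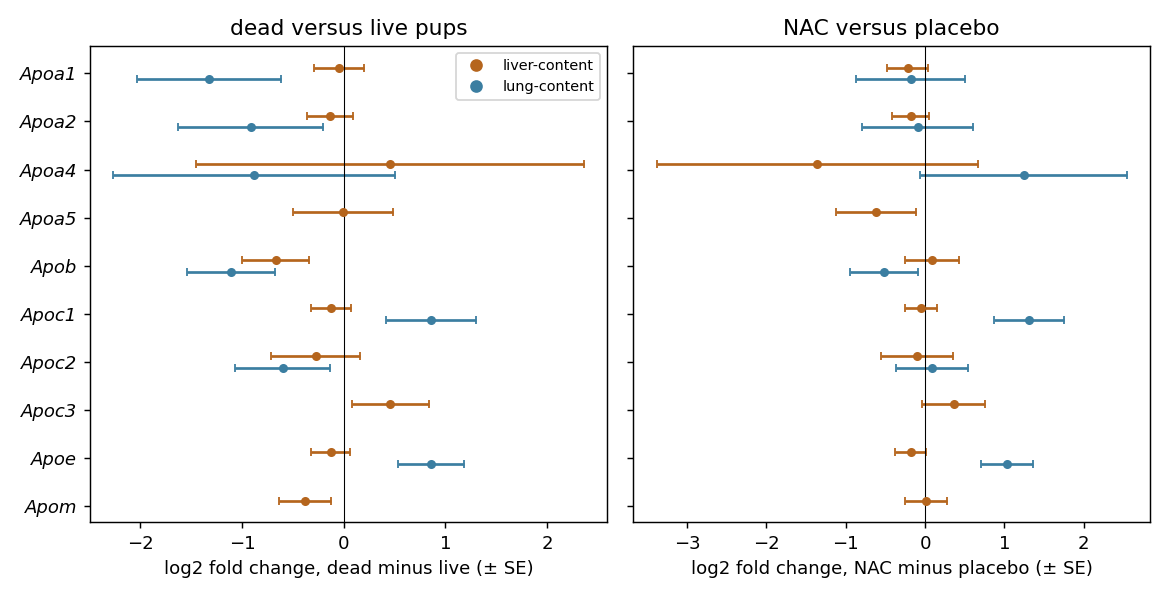
Log2 fold change of each gene, dead minus live (left) and NAC minus placebo (right), with bars of 1 SE, in liver-content (8) and lung-content (7) libraries. Apoa5, Apoc3 and Apom are missing in lung content, where they did not pass the filter on low counts. No value shown had an adjusted p under 0.05.

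In lung content 7 of the 10 genes passed the filter of a mean of at least 1 CPM, and Apoa5, Apoc3 and Apom did not. Between 3 dead and 4 live libraries none of the 7 was called, and neither was any of 13990 features (0%; edgeR quasi-likelihood test, 507 at an unadjusted p under 0.05, 19 called by DESeq2). Apoe was at 291, 692 and 1090 CPM in dead and 261, 343, 419 and 725 CPM in live pups, with a log2 fold change of 0.86 ± 0.33 (SE, adjusted p = 1). Apob was at 2.52, 3.65 and 4.52 CPM in dead and 4.42, 4.83, 6.79 and 13.6 CPM in live pups (-1.11 ± 0.43, adjusted p = 1), from 23 to 118 counts a library. Both pairs of groups overlapped. Apoe was 0.44 without dead null placebo labelled liver, and Apob was -0.55 without live heterozygous placebo labelled liver. The median over the 7 genes was -0.88 (2 above 0) against 0 over all features, beside medians of -0.93 for hepatocyte markers (3 of 11 above 0), 0.86 for erythroid markers (8 of 8) and 0.48 for macrophage markers (8 of 10), whose part was not tested.

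NAC and placebo differed in lung content in 13.3% of features (1866 of 13990 by the edgeR quasi-likelihood test, 1092 higher and 774 lower with NAC). None of the 7 apolipoproteins tested was called, and 7 genes are too few to set this apart from that share. Apoe was at 343, 725 and 1090 CPM in 3 NAC libraries and at 261, 291, 419 and 692 CPM in 4 placebo libraries, which overlapped, with a log2 fold change of 1.04 ± 0.33 (SE, adjusted p = 0.0633). Apoc1 was at 14.1, 17.8 and 40.3 CPM with NAC and at 4.34, 7.28, 12.6 and 20.6 CPM with placebo (1.31 ± 0.44, adjusted p = 0.0767). Within each of the 3 pup groups that had both treatments in lung content, the NAC library was the higher for both genes. The share of all features for which this held was not counted, so nothing is read from it. For Apoe the NAC value was 1.31 times placebo in live heterozygous, 1.73 times in live WT and 3.75 times in dead heterozygous pups, and for Apoc1 it was 1.94, 1.41 and 9.29 times. The remaining placebo library, dead null, was the highest placebo library for both.

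**Figure D5:**
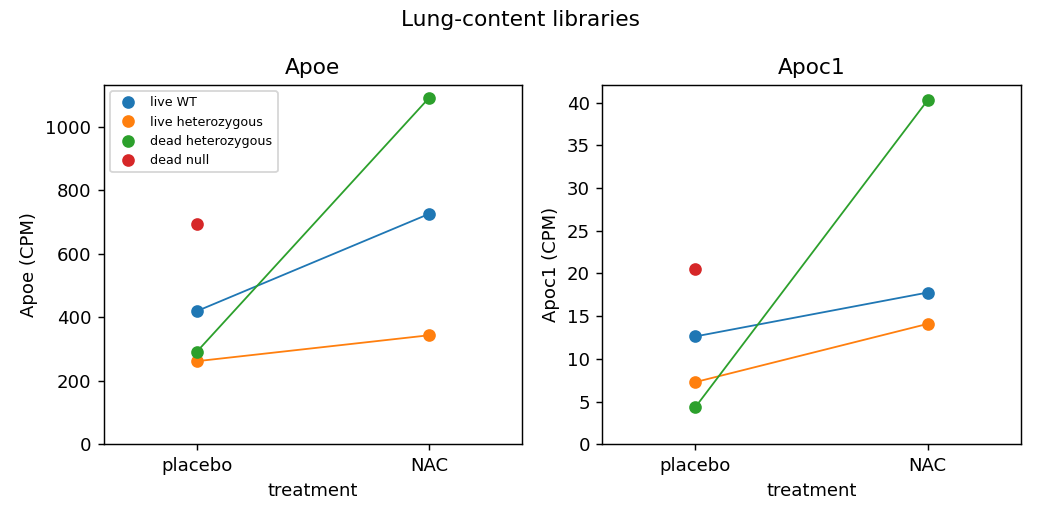
Apoe (left) and Apoc1 (right) in the 7 lung-content libraries (CPM, linear axis from 0), by treatment, with lines joining the placebo and the NAC library of a pup group. All 3 lines run upward, and the dead null placebo library lies above 2 of the 3 NAC libraries for Apoc1 and above 1 for Apoe.

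These 2 genes lay close to the threshold. Both were called by DESeq2 (adjusted p = 0.00709 for Apoe and 0.0175 for Apoc1, 19.6% of features called), without the filter on low counts (0.0143 and 0.0167, 14.3%), with pup group in 4 levels as a covariate (0.00532 and 0.017, 25.6%) and without the dead null placebo library (0.00704 and 0.0132, 29.2%). With the mixed library included, Apoe was at 0.56 ± 0.66 and Apoc1 at 0.05 ± 1.36, and this placebo library alone had 2198 CPM of Apoe and 292 CPM of Apoc1. Over all alternatives the adjusted p ran from 0.00532 to 0.569 for Apoe and from 0.0132 to 0.981 for Apoc1 (edgeR or DESeq2). The count of 1866 moved with single libraries. It was 0 without dead heterozygous placebo (labelled lung), live WT placebo (labelled liver) or live heterozygous placebo (labelled liver), 1 without live heterozygous NAC (labelled lung), 947 without live WT NAC (labelled lung) and 4085 without dead null placebo (labelled liver). Where it was 0 or 1, 3025 to 3801 features still had an unadjusted p under 0.05, against 4821 with all 7 libraries. With library size alone as scaling it was 872, with 322 higher and 550 lower. The median log2 fold change of all features was then -0.24, against -0.02 in the main fit. Ribosomal RNA (Rn45s) took 8.16, 9.69 and 26.2% of counts in the NAC libraries and 4.05, 15.9, 19.0 and 19.7% in the placebo libraries, and the macrophage markers summed to 438, 620 and 1766 CPM with NAC and 916, 1105, 1325 and 1664 CPM with placebo, mostly Lyz2. Erythroid markers had a median log2 fold change of 0.32 (8 of 8 above 0, 2 called higher), hepatocyte markers 0.29 (9 of 11 above 0, none called), and of 12 lung markers 1 was called higher and 1 lower. Their part in the difference was not tested.

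Some genes of the receptor, regulator and lipase lists were called in this comparison. Among receptor and efflux genes, Mylip (1.51 ± 0.30, SE), a ligase that degrades the LDL receptor, and Scarb1 (0.86 ± 0.19), the HDL receptor, were higher with NAC. Their adjusted p-values by edgeR were 0.0245 and 0.0287. Of 12 regulators 3 were higher, Ppargc1a (1.54 ± 0.21, adjusted p = 0.0183), Foxo1 (0.86 ± 0.18, 0.0258) and Srebf1 (0.88 ± 0.23, 0.0399), and of 7 lipases and enzymes 1, Gpihbp1 (0.72 ± 0.17, 0.0308), the capillary anchor of lipoprotein lipase. Of all features 7.81% were called higher with NAC, and nothing is read from 1 gene of 7. With library size alone as scaling, only Mylip and Ppargc1a of these 6 kept an adjusted p under 0.05, all 6 with the same direction, and none can hold its call where leaving out a library brought the count of features to 0. None of 8 assembly and editing genes and none of 3 other apolipoproteins was called. The median over the 7 apolipoproteins was 0.09 against -0.02 over all features.

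The dead minus live difference was compared between contents in 1 model of 15 libraries. No apolipoprotein was called for a different effect in liver than in lung content, and neither was any of 14175 features (0%, edgeR quasi-likelihood test, 546 at an unadjusted p under 0.05). DESeq2 was not run on this model. Apoa5, Apoc3 and Apom passed the filter here through their liver-content level. They held at most 3 counts in 5, 7 and 5 of the 7 lung-content libraries, so the test cannot decide for them. The difference of log2 fold changes, liver content minus lung content, was -1.09 ± 0.57 for Apoe and -1.16 ± 0.64 for Apoc1 (SE, adjusted p = 0.967 for each). With pup group and treatment as a block, since most of these gave a library of each content, the values were -0.70 ± 0.86 and -0.30 ± 0.89 (adjusted p = 0.911 and 0.972), again with 0 features called.

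By label, each NAC library was set against the placebo library of the same pup group and tissue label, 1 against 1 and with no replicate check. In 7 of these 8 pairs one library had liver and the other lung content, and all 10 genes were past a 2-fold difference in the direction of content. They were lower with NAC by a median log2 fold change of -9.33 in live WT labelled lung, where 28.5% of features were lower by that much, of -10.55 in live heterozygous labelled lung (31.9%) and of -9.83 in dead heterozygous labelled liver (25.8%). They were higher with NAC by 10.91 in live WT labelled liver (24.4% of features higher), 8.73 in live heterozygous labelled liver (25.1%), 10.04 in dead heterozygous labelled lung (25.3%) and 10.62 in dead null labelled liver (29.1%). In the pair labelled dead null lung, in which the NAC library had liver and the placebo library mixed content, 7 genes were past 2-fold higher with NAC (22.1% of features) and 1, Apoa4 (-1.26), past 2-fold lower (24.9%). Library size alone as scaling made this 6 and 2.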

How the data were processed

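RNA of lung and liver from newborn pups was sequenced with a stranded polyA kit. The authors aligned reads to the mouse genome (GRCm38) and deposited estimated counts per gene symbol without normalization. The labels also name R 4.0.3 and edgeR 3.30.3 without a role. Between 6.28% and 7.98% of values in a library were not whole, and all were rounded. CPM used the library total (7236865 to 16107749 counts), and 3 counts were taken as the floor. The floor covers counting error only.

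Libraries were grouped by label and by Alb and Sftpc content. The edgeR 4.0.16 quasi-likelihood test (R 4.3.3) used TMM factors, a mean of at least 1 CPM, and a Benjamini-Hochberg adjusted p under 0.05 over all features, with DESeq2 1.42.0 as an alternative. SEs are the absolute log2 fold change over the root of the F statistic. Other scalings, filters, covariates and leaving out each library were also tried, and the mixed library was kept out of the main fits. Each pup group, treatment and label was 1 library, so p-values measure the spread between pooled libraries of different labels. On simulated counts, of 200 genes changed 2-fold, 184 were recovered for dead versus live pups (13000 genes) and 163 for NAC (12999) in liver content, and 148 (13980) and 155 (13956) in lung content. The simulation gave every gene the same dispersion, which was set and not taken from these data, and changed only genes of at least 10 CPM. These shares do not carry over to genes that vary more, such as Apoa4, so the lack of a call does not exclude a 2-fold change. Named genes were the 10 members, called genes of fixed lists, except 1 that is not reported here, and the 5 nearest in profile. The members and lists were chosen with earlier results of these data known. Positions and exon lengths came from GENCODE M21.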

Additional observations from a re-analysis of the deposited data

Results flagged for a closer look

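Of 50 tests for a library apart from the others of its group (10 genes in 5 sets of 4 or 5 libraries of 1 content), 5 gave one. Chance gives about 1 in 20 for independent tests. These sets share libraries and most of the genes moved together, so the 5 cannot be set against that share. Among the 4 dead liver-content libraries, dead null NAC labelled liver stood apart for Apoa1 (17928 CPM, others 11665 to 12060), Apoa5 (793 CPM, others 249 to 303) and Apoc2 (997 CPM, others 328 to 391). In this library Alb was at 51003 CPM and the 9 erythroid markers at 7347 CPM, against 91486 to 101254 CPM and 25827 to 35359 CPM in the other 3. The part of these in the difference was not tested. Among the 4 lung-content placebo libraries, live heterozygous placebo labelled liver stood apart for Apoa5 (1.50 CPM, 13 counts, others 0 to 0.129 CPM) and for Apoc3 (0.116 CPM, which is 1 count, others 0).

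By label, the 10 genes differed with NAC in opposite directions in live and dead heterozygous pups. Their median log2 fold change was -9.33 in live WT and -10.55 in live heterozygous pups labelled lung but 10.04 in dead heterozygous pups labelled lung, and 10.91, 8.73 and -9.83 in the same groups labelled liver. Dead null pups labelled liver, at 10.62, had the direction of live pups. The difference was not tested. Content differed within each of these pairs, and treatment and content cannot be told apart in them.

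The mixed library, dead null placebo labelled lung, entered no main comparison. Apoa1 was at 3200 CPM and Apoc3 at 134.5 CPM in it, above the 2.80 to 29.9 and 0 to 0.226 CPM of lung-content libraries. Its Apoc3 count was 1.45% of its Alb count, against 0.0438 to 0.297% in liver-content libraries.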

How the results depend on the processing

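For dead versus live pups in both contents and NAC in liver content, other size factors, no filter, DESeq2, other covariates and leaving out 1 library at a time left the apolipoprotein calls at 0. The genotype comparisons were refitted with library size alone and libraries left out, and the difference between contents also with other size factors and a block, with 0 apolipoprotein calls. For NAC in lung content 2 genes, Apoe and Apoc1, were called without the filter, by DESeq2, with pup group in 4 levels and without dead null placebo labelled liver (0 to 2 over the libraries left out). The count of features called for dead versus live pups in liver content was 1 without the filter, 45 by DESeq2 and 0 to 11 with a library left out (11 without dead null NAC labelled liver), and for NAC 1 by DESeq2. In lung content it was 1 without the filter and 19 by DESeq2 for dead versus live pups, and for NAC 872 with library size alone, 3585 with pup group in 4 levels, 2745 by DESeq2 and 0 to 4085 with a library left out. Null versus heterozygous pups, and the difference between contents, gave 0 to 1.

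Directions turned for Apoa4, dead versus live in liver content, with viability alone (-0.59) and over libraries left out (-2.07 to 1.72), and likewise for Apoa4 with NAC (-2.78 to 0.38) and in heterozygous versus WT pups (-0.28 to 4.33). They turned for Apoa5, dead versus live, in libraries labelled liver alone (0.84) and over libraries left out (-0.48 to 0.58), and for Apob in lung content with the mixed library included (3.05). The cause was not tested. Libraries labelled liver alone, leaving out libraries for the genotype comparisons and the difference between contents, and the block in the latter, were chosen after seeing the data. A prior count of 2 left the number of genes past 2-fold in each labelled pair as it was, and sorting by marker lists gave the same count without overlap.

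The labels give no replicate numbers, so no replicate block was fitted. Pup group served as the block for NAC, which added the Apoe and Apoc1 calls in lung content, and pup group with treatment for the difference between contents. Depth limits Apoa5, Apoc3 and Apom in lung content, where most libraries held at most 3 counts of each.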
